A study of Rattus norvegicus with 172 samples.

Results

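The nuclear-encoded genes of oxidative phosphorylation were followed in the livers of male Fischer F344 rats that received furan or 3-methylfuran for 90 days. Members were all gene symbols of the deposited comparison tables that begin with Ndufa, Ndufb, Ndufc, Ndufs, Ndufv, Uqcr, Cox4 to Cox8 or Atp5, together with Sdha to Sdhd. Of 94 genes that match these names, 84 had a mean of 1 CPM or more over all 70 rats (read counts scaled to the size of the library), out of 19777 genes with a symbol. The 84 comprised 35 complex I subunits, 8 complex I assembly factors (the Ndufaf genes), 4 genes of complex II, 9 of complex III, 11 of complex IV and 17 of complex V, the ATP synthase. Ndufa4 was counted with complex I after its symbol, although its protein is now assigned to cytochrome c oxidase. The furan experiment held 8 undosed controls and 8, 8, 7 and 7 rats at daily doses of 0.03, 0.12, 0.5 and 2.0 mg per kg body weight. For 3-methylfuran there were 8 separate undosed controls and 8 rats at each daily dose of 0.02, 0.075 and 1.0 mg per kg. Furan is a small oxygen-containing ring compound that forms in heated food, and 3-methylfuran has a methyl group on that ring. All groups were of the same strain, sex and tissue.

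In oxidative phosphorylation, electrons from NADH enter the inner mitochondrial membrane at complex I and those from succinate at complex II, pass over ubiquinone to complex III and over cytochrome c to complex IV, and the proton gradient built on the way drives complex V. Most subunits are encoded in the nucleus and imported, while a small core of complexes I, III, IV and V is encoded in mitochondrial DNA. Hepatocytes are rich in mitochondria and use this chain for gluconeogenesis, urea synthesis and the oxidation of fatty acids.

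Depth was 11.4 to 27.7 M counts per furan-experiment rat and 11.1 to 50 M counts per rat of the 3-methylfuran experiment. The libraries of the highest doses had a different composition from their controls. The TMM scaling factors of edgeR, which equalise the typical gene, were 1.02 to 1.4 at furan 2.0 beside 0.894 to 0.963 in its controls, and 1.05 to 1.23 at 3-methylfuran 1.0 beside 0.919 to 0.974. Scaling by library totals alone shifted the median log2 fold change of all genes from 0.02 to 0.42 at furan 2.0 and from 0 to 0.25 at 3-methylfuran 1.0. Changes below are therefore changes relative to the typical gene unless library totals are named. Alb, the albumin gene that marks hepatocytes, was at 65212 CPM or more in every rat of the control and highest-dose groups.

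At the highest furan dose 32 of 84 OXPHOS genes fell relative to TMM scaling and 6 rose (edgeR quasi-likelihood test, Benjamini-Hochberg adjusted p under 0.05). The 6 were 4 assembly factors of complex I, the ATP synthase inhibitor gene Atp5if1 and the supercomplex factor gene Cox7a2l. Among all genes tested 22.5% fell and 24.0% rose on that scale. With library totals 0 members fell and 62 rose, under a scaling in which 6.07% of all genes fell and 68.2% rose. The median log2 fold change of the members was -0.12, beside 0.02 for all 12727 genes tested. The distance between these medians was -0.14, and it lay between -0.16 and -0.14 over the 8 scalings, filters and tests tried, library totals included. A change of scaling shifts all genes nearly alike, so it could hardly alter this distance and is no check of it. As a share of all counts, the members took 0.845 to 0.941% in control rats and 0.982 to 1.11% at furan 2.0, so their plain share was higher in every dosed rat than in every control rat. Leaving out 1 rat at a time moved the count that fell from 24 (without rat ME085_L) to 49 (without rat ME089_L).

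At the highest 3-methylfuran dose 31 of 84 members fell relative to TMM scaling and 8 rose (edgeR, adjusted p under 0.05). The 8 were 3 assembly factors of complex I, Atp5if1, Cox7a2l, the complex I subunit genes Ndufs1 and Ndufs4, and Atp5s. Among all 11930 genes tested 22.5% fell and 21.2% rose on that scale. With library totals 1 member fell and 45 rose, beside 7.74% and 51.0% of all genes. The members' median log2 fold change was -0.09, beside 0 for all genes tested. The distance between these medians was -0.09 under each of the 8 scalings, filters and tests, and here too a change of scaling could hardly alter it. The members took 0.94 to 1.11% of the counts in control rats and 1.05 to 1.17% at 3-methylfuran 1.0. In the authors' deposited tables, 32 members were lower and 6 higher at furan 2.0, and 30 were lower and 7 higher at 3-methylfuran 1.0.

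**Figure D1:**
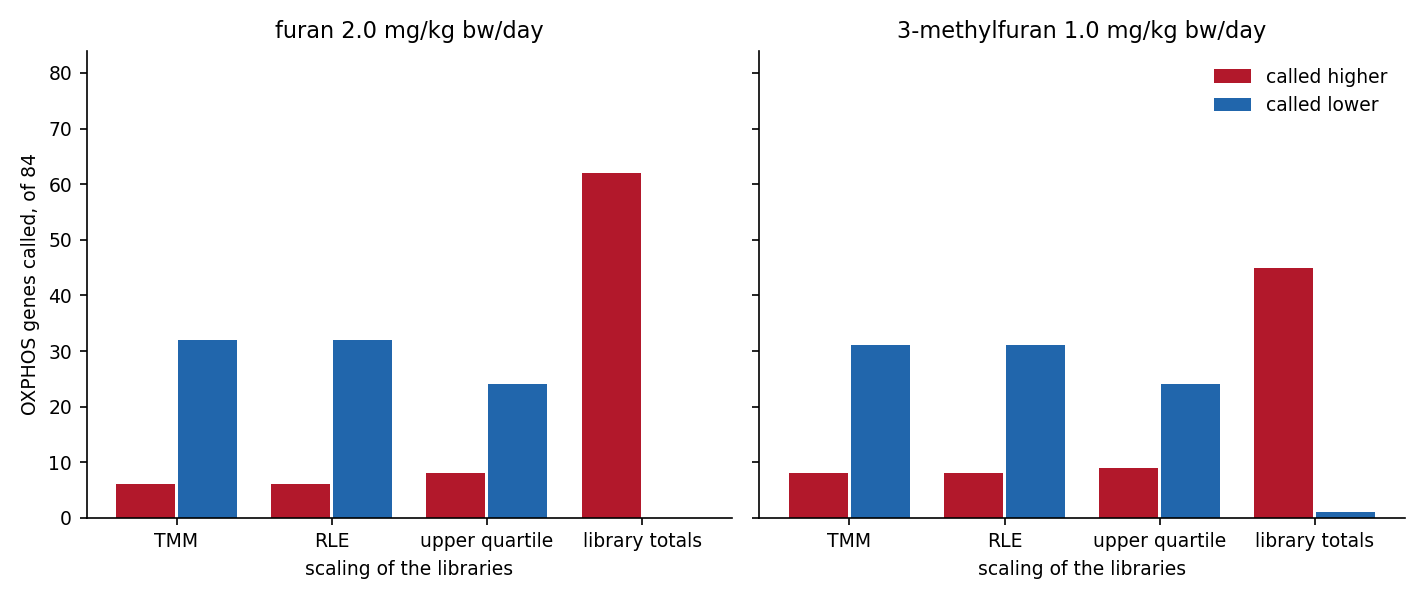
Number of OXPHOS genes called higher (red bars) or lower (blue bars) of 84, at an edgeR adjusted p under 0.05, under 4 scalings of the libraries for furan 2.0 (left) and 3-methylfuran 1.0 (right). TMM gave 32 lower and 6 higher for furan 2.0, and library totals gave 0 lower and 62 higher, where 68.2% of all genes were called higher.

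Promoter windows are shown for 4 members called at both highest doses, 2 of them lower and 2 higher, which are examples and not a typical set. RefSeq promoter windows of the GRCr8 build, 250 bases before to 50 after a start site, were matched to 74 of the 84 members (72 distinct windows). Exact strings were searched on both strands, and each is only a part of what the factor can bind. The string GCGCATGC, from the site of the nuclear respiratory factor NRF1, was in 10 of 72 member windows (13.9%) and in 2.66% of all 27457 windows. AAGATGGC, from the YY1 site, was in 15 (20.8%) beside 3.44%. CCGGAAGT, from the ETS site that GABPA and related factors bind, was in 7 (9.72%) beside 4.01%, and AAGGTCA, from the site of the oestrogen-related receptor ESRRA, in 10 (13.9%) beside 4.37%. Among the 21 windows of members called lower at both highest doses, the NRF1, YY1, ETS and ESRRA strings were in 4 (19.0%), 6 (28.6%), 2 (9.52%) and 4 (19.0%). Among the 27 windows of members called at neither, they were in 3 (11.1%), 5 (18.5%), 2 (7.41%) and 1 (3.7%). The 9 windows of members called higher at either dose held them in 2 (22.2%), 1 (11.1%), 1 (11.1%) and 0. These shares are descriptions, and no difference between the sets was tested. The 250 bases before the start site are printed 5′ to 3′ on the gene's strand, with any of the 4 strings in capitals. GCGCATGC overlaps its own reverse complement, so that 1 stretch can match on both strands. Ndufa11 (plus strand, chr9:1637364-1637613) and Uqcrq (minus strand, chr10:38089979-38090228) fell at both highest doses on the TMM scale, and Ndufaf5 (plus strand, chr3:147961362-147961611) and Atp5if1 (minus strand, chr5:150026678-150026927) rose at both. The Atp5if1 stretch held none of the 4 strings, which says only that these letters are not in these 250 bases. The shares above also count strings in the 50 bases after the start site, which are not printed. None were in the same stretch of Cox7c and Sdha, which fell at both doses, or of Cox7a2l and Ndufaf7, which rose at both.
Ndufa11: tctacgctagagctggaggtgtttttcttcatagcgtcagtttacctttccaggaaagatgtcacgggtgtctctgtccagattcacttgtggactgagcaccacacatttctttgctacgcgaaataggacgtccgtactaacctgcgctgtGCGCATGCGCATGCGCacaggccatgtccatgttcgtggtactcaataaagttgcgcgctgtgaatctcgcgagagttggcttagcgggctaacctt
Uqcrq: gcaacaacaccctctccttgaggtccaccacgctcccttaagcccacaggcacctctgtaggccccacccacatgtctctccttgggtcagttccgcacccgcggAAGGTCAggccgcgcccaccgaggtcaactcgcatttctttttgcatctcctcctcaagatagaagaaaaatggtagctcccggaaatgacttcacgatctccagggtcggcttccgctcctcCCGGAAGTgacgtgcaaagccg
Ndufaf5: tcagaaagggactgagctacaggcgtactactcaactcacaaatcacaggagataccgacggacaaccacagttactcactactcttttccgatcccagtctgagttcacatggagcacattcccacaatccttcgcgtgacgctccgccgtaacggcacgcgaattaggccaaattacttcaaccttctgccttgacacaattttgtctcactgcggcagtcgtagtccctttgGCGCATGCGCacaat
Atp5if1: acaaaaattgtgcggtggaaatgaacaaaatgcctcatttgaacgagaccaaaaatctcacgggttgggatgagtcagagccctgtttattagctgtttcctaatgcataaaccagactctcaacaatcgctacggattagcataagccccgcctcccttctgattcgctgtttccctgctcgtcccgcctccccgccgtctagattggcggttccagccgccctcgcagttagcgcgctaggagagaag

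Complex I subunits made up the largest class. At furan 2.0, 17 of 35 fell relative to TMM scaling and the other 18 were not called, whereas with library totals 21 rose (edgeR, adjusted p under 0.05). Their median log2 fold change was -0.16 on the TMM scale and 0.22 with library totals. At 3-methylfuran 1.0, 16 fell and 2 rose relative to TMM scaling, with a median of -0.12, and with library totals 1 fell and 18 rose. Beside these counts, and those of each class below, 22.5% of all genes fell at each dose on the TMM scale. On that scale 24.0% rose at furan 2.0 and 21.2% at 3-methylfuran 1.0, and with library totals 68.2% and 51.0% rose. The increases of complex I subunits with library totals were thus near or below the share of all genes.

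Ndufa11 (ENSRNOG00000048320), an accessory subunit of the membrane arm, was among the members with the lowest fold changes. Its level was 94.7 to 127 CPM in furan controls (median 105) and 59.6 to 99.1 CPM at furan 2.0 (median 72.8). All 7 dosed rats lay below the control mean, although the highest of them lay above the lowest control. The log2 fold change was -0.47 ± 0.08 (SE; edgeR adjusted p = 5.47e-06), and -0.1 with library totals. In the 3-methylfuran experiment its controls held 88.1 to 112 CPM (median 97.2) and the rats at 1.0 held 61.4 to 84.6 CPM (median 75.3), with no overlap between the groups. That of 3-methylfuran 1.0 was -0.39 ± 0.06 (edgeR adjusted p = 2.68e-06), and -0.14 with library totals.

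Ndufb2, another accessory subunit of the membrane arm, stood at 40.4 to 55.8 CPM in furan controls (median 45.1) and at 31.3 to 45.2 CPM at furan 2.0 (median 34.8). It stood at 53.8 to 73.7 CPM in 3-methylfuran controls (median 61.6) and at 42.7 to 53.8 CPM at 1.0 (median 47). The furan groups overlapped and the 3-methylfuran groups met at their edges without crossing. The log2 fold change was -0.34 ± 0.08 for furan 2.0 (edgeR adjusted p = 0.000371) and -0.4 ± 0.06 for 3-methylfuran 1.0 (adjusted p = 6.32e-07). With library totals these were 0.04 and -0.16, and the second was the only decrease among the 84 members still called under that scaling. Ndufb9 and Ndufb11, further accessory subunits, had log2 fold changes of -0.42 ± 0.07 and -0.34 ± 0.06 at furan 2.0. At 3-methylfuran 1.0 they had -0.33 ± 0.06 and -0.34 ± 0.05.

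The complex I genes comprised 7 core subunits, which carry the flavin and the iron-sulfur clusters, and 28 accessory ones. Relative to TMM scaling, 1 of 7 core genes and 16 of 28 accessory genes fell at furan 2.0, with medians of -0.04 and -0.24. At 3-methylfuran 1.0, 1 core gene fell and 1 rose, while 15 accessory genes fell and 1 rose, with medians of -0.06 and -0.17. This division was chosen after the values were seen, and the difference between the divisions was not tested. Ndufv1, the subunit that binds NADH and flavin, was at 111 to 153 CPM at furan 2.0 (median 120) beside 121 to 149 CPM in controls (median 127), with a log2 fold change of -0.04 ± 0.06 (edgeR adjusted p = 0.615).

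Ndufs1, the largest iron-sulfur subunit and a core gene, rose at 3-methylfuran 1.0, where 15 of 28 accessory genes fell and 1 rose. Controls held 131 to 148 CPM (median 141) and dosed rats 149 to 175 CPM (median 160), with no overlap. It rose by 0.2 ± 0.04 on the log2 scale (edgeR adjusted p = 0.000258), and by 0.45 with library totals. At furan 2.0 its log2 fold change was 0.08 ± 0.05 (adjusted p = 0.206). Ndufc2 had -0.16 ± 0.08 at furan 2.0 and 0.08 ± 0.07 at 3-methylfuran 1.0, neither called.

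The assembly factors of complex I, which build the enzyme but leave it once it is complete, were the class whose median lay above that of all genes tested on the TMM scale. At furan 2.0, 4 of 8 rose (Ndufaf4, Ndufaf5, Ndufaf6 and Ndufaf7) and the other 4 were not called, with a class median of 0.15. At 3-methylfuran 1.0, 3 rose (Ndufaf1, Ndufaf5 and Ndufaf7), with a class median of 0.19. With library totals 7 of 8 rose at each highest dose, and the class medians were 0.54 and 0.44 beside all-gene medians of 0.42 and 0.25.

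Ndufaf4, a factor of the early matrix arm, was at 10.9 to 14 CPM in furan controls (median 12.4) and at 17.4 to 21.5 CPM at furan 2.0 (median 19). The groups did not overlap. It rose by 0.63 ± 0.13 on the log2 scale (edgeR adjusted p = 0.000102). In 3-methylfuran rats the groups overlapped, with 10.8 to 21.1 CPM in controls and 13.3 to 24.4 CPM at 1.0 (0.25 ± 0.16, edgeR adjusted p = 0.205). At furan 0.5 the level was 9.82 to 20.8 CPM (median 16), with a log2 fold change of 0.36 ± 0.13 that was not called (adjusted p = 0.114).

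Ndufaf6 was at 2.42 to 3.51 CPM in furan controls (median 2.85) and at 3.67 to 5.99 CPM at furan 2.0 (median 4.1), again without overlap. It rose by 0.58 ± 0.13 (edgeR adjusted p = 0.000256), and at 3-methylfuran 1.0 it had 0.15 ± 0.11 (adjusted p = 0.272). Ndufaf7, a mitochondrial methyltransferase, showed the larger estimate in the other experiment. It was at 7.88 to 9.98 CPM in 3-methylfuran controls (median 8.3) and at 10 to 13.3 CPM at 1.0 (median 12.5), groups that did not overlap. The log2 fold change was 0.52 ± 0.08 at 3-methylfuran 1.0 (edgeR adjusted p = 9.33e-07) and 0.3 ± 0.09 at furan 2.0 (adjusted p = 0.00485). Ndufaf1, an early membrane-arm factor, had 0.26 ± 0.08 at 3-methylfuran 1.0 (adjusted p = 0.0119) and 0.01 ± 0.06 at furan 2.0 (adjusted p = 0.918). All 8 assembly factors had group means below 20 CPM, and their standard errors ran from 0.06 to 0.16 over both highest doses.

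**Figure D2:**
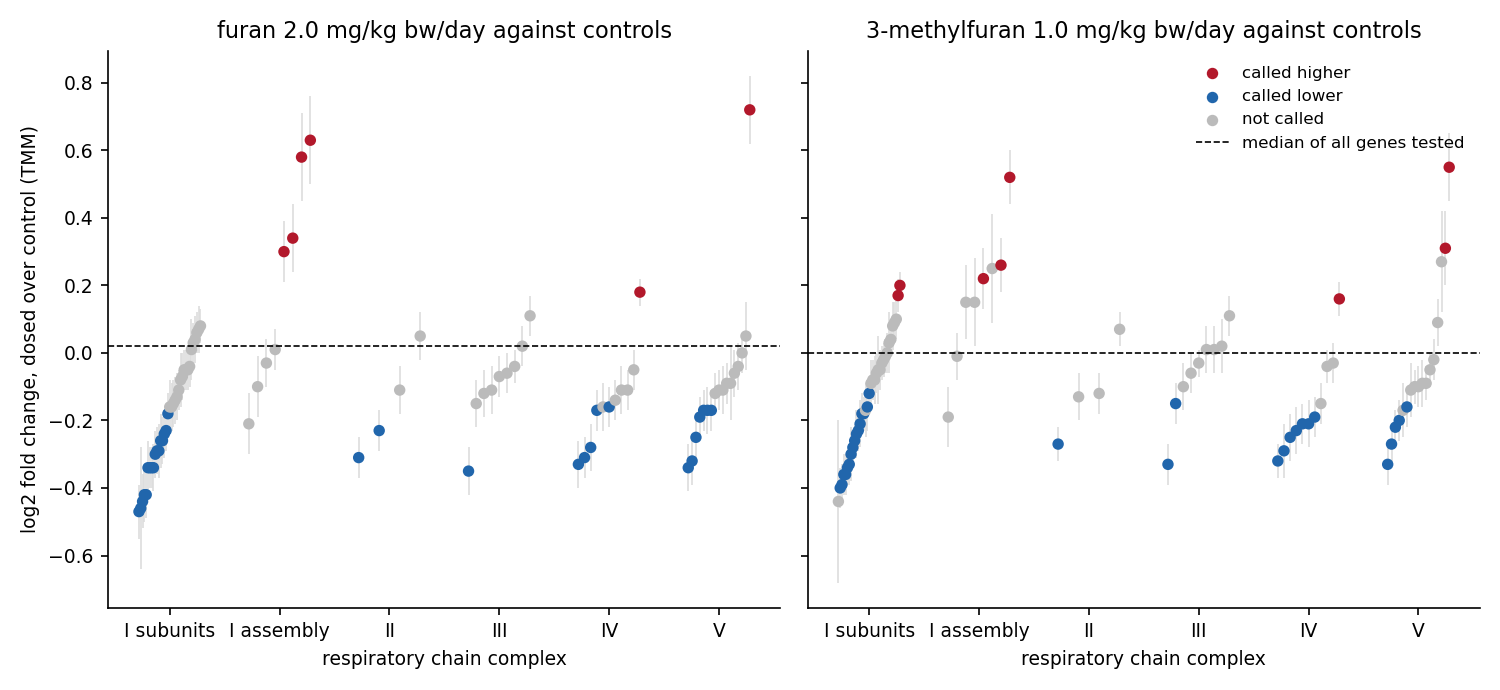
Log2 fold change of each of the 84 OXPHOS genes (points, with SE bars) over its own controls on the TMM scale, by complex, at furan 2.0 (left) and 3-methylfuran 1.0 (right); red and blue points passed an edgeR adjusted p under 0.05. Complex I subunits reach down to -0.47 at furan 2.0 and assembly factors up to 0.63, beside an all-gene median of 0.02 (dashed); with library totals 0 members would be called lower at furan 2.0.

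Complex II, succinate dehydrogenase, links the chain to the citric acid cycle. Relative to TMM scaling 2 of its 4 genes fell at furan 2.0 and 1 at 3-methylfuran 1.0, whereas with library totals 3 and 1 rose. Sdha, the flavoprotein that oxidises succinate, was at 293 to 325 CPM in furan controls (median 311) and at 206 to 314 CPM at furan 2.0 (median 247). Of the dosed rats, 6 lay below the control mean and 1 above it. The log2 fold change was -0.31 ± 0.06 (edgeR adjusted p = 0.000137) and 0.06 with library totals. At 3-methylfuran 1.0 all 8 rats lay below the control mean (228 to 298 beside 273 to 349 CPM; -0.27 ± 0.05, adjusted p = 0.000139). Sdhb, the iron-sulfur subunit, was not called at either dose (-0.11 ± 0.07 and -0.12 ± 0.06).

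Complex III was the class with the smallest share of calls at both highest doses. Relative to TMM scaling 1 of 9 genes fell at furan 2.0 and 2 at 3-methylfuran 1.0, with medians of -0.07 and -0.03, and with library totals 8 and 6 rose. The gene that fell at both was Uqcrq, a small subunit near the ubiquinone site, at 143 to 203 CPM in furan controls (median 160) and 110 to 160 CPM at furan 2.0 (median 118). All 7 dosed rats lay below the control mean. Its log2 fold change was -0.35 ± 0.07 at furan 2.0 (edgeR adjusted p = 0.000149) and -0.33 ± 0.06 at 3-methylfuran 1.0 (adjusted p = 9.98e-06), where the groups did not overlap. Uqcrc1, a core protein, had 0.11 ± 0.06 in both experiments, and Uqcrfs1, the Rieske iron-sulfur protein, had 0.02 ± 0.06 and -0.03 ± 0.04. None of these 4 values was called.

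In complex IV, cytochrome c oxidase, 5 of 11 genes fell and 1 rose at furan 2.0 relative to TMM scaling, and 7 fell and 1 rose at 3-methylfuran 1.0. The class medians were -0.16 and -0.21, and with library totals they were 0.22 and 0.05, with 8 and 3 genes called higher. Cox7c, a small subunit of the membrane part, was at 87.1 to 113 CPM in furan controls (median 99.6) and at 65.9 to 90.1 CPM at furan 2.0 (median 80.3), with a narrow overlap. In the 3-methylfuran experiment it was at 115 to 144 CPM in controls (median 127) and at 93.2 to 113 CPM at 1.0 (median 100), with no overlap. Its log2 fold change was -0.33 ± 0.07 (edgeR adjusted p = 0.00012) and -0.32 ± 0.05 (adjusted p = 5.31e-06), and 0.05 and -0.07 with library totals. Cox5b, Cox6a1 and Cox8a were called lower at 3-methylfuran 1.0 (-0.21, -0.19 and -0.23) and not at furan 2.0 (-0.16, -0.11 and -0.14). For these 3 genes the difference between the compounds was itself tested and not called. Cox5a, a subunit on the matrix side, was called at neither dose (-0.05 ± 0.06 and -0.04 ± 0.05).

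The gene of complex IV that rose was Cox7a2l, whose protein joins complexes III and IV into supercomplexes. It was at 47.9 to 57.9 CPM in furan controls (median 51.6) and at 53.4 to 66.6 CPM at furan 2.0 (median 58.4). All 7 dosed rats lay above the control mean, with some overlap. Its log2 fold change was 0.18 ± 0.04 at furan 2.0 (edgeR adjusted p = 0.000808) and 0.16 ± 0.05 at 3-methylfuran 1.0 (adjusted p = 0.00497). With library totals it was 0.58 and 0.41. The muscle-type isoforms Cox6a2, Cox7a1 and Cox8b and the hypoxia-linked Cox4i2 were among the 10 genes below 1 CPM. Their mean levels were 0.0458, 0.0162, 0.0476 and 0.266 CPM over 70 rats. Ndufa1, Ndufs6 and Atp5pb, which encode subunits found in most tissues, were also below 1 CPM (0.0253, 0.173 and 0.298), and whether their reads were counted under other gene entries was not tested. The remaining genes below 1 CPM were Cox6b2, Ndufa10l1 and Ndufa4l2. Cox4i1 and Cox7a2, further complex IV genes, had no entry under these symbols, so the complex IV members leave them out. Whether they are held under other names was not tested.

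In complex V, 7 of 17 genes fell and 1 rose at furan 2.0 relative to TMM scaling, 5 fell and 2 rose at 3-methylfuran 1.0, and with library totals 15 and 10 rose. Atp5f1b, the catalytic beta subunit, was at 1391 to 1594 CPM in furan controls (median 1493) and at 1180 to 1679 CPM at furan 2.0 (median 1321). The dosed rats spanned the whole control range, with 5 below and 2 above the control mean. Its log2 fold change of -0.11 ± 0.06 was not called (edgeR adjusted p = 0.135), nor was that of the alpha subunit gene Atp5f1a (-0.12 ± 0.06). Atp5f1e, the epsilon subunit of the central stalk, had -0.34 ± 0.07 (adjusted p = 9.12e-05) at furan 2.0 and -0.33 ± 0.06 (adjusted p = 2.09e-05) at 3-methylfuran 1.0, and 0.04 and -0.08 with library totals. Atp5mc1, 1 of the 3 genes of the membrane ring subunit, was called at neither dose (-0.11 ± 0.07 and -0.17 ± 0.08).

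Atp5if1, whose protein blocks ATP hydrolysis by complex V when the proton gradient collapses, had the highest fold change of the 84 members in both experiments. Its level was 13.2 to 19.4 CPM in furan controls (median 14.4), 16.6 to 20.3 at 0.5 (median 17.6) and 20.3 to 33.6 at furan 2.0 (median 25.6). At 2.0 every rat was above every control. It rose by 0.72 ± 0.1 on the log2 scale (edgeR adjusted p = 6.26e-07), and 1.13 with library totals. In the 3-methylfuran experiment it was at 10 to 18.8 CPM in controls (median 14.6) and at 17.6 to 23.9 CPM at 1.0 (median 22.2), with a small overlap. It rose there by 0.55 ± 0.1 (edgeR adjusted p = 5.17e-05), and 0.8 with library totals.

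**Figure D3:**
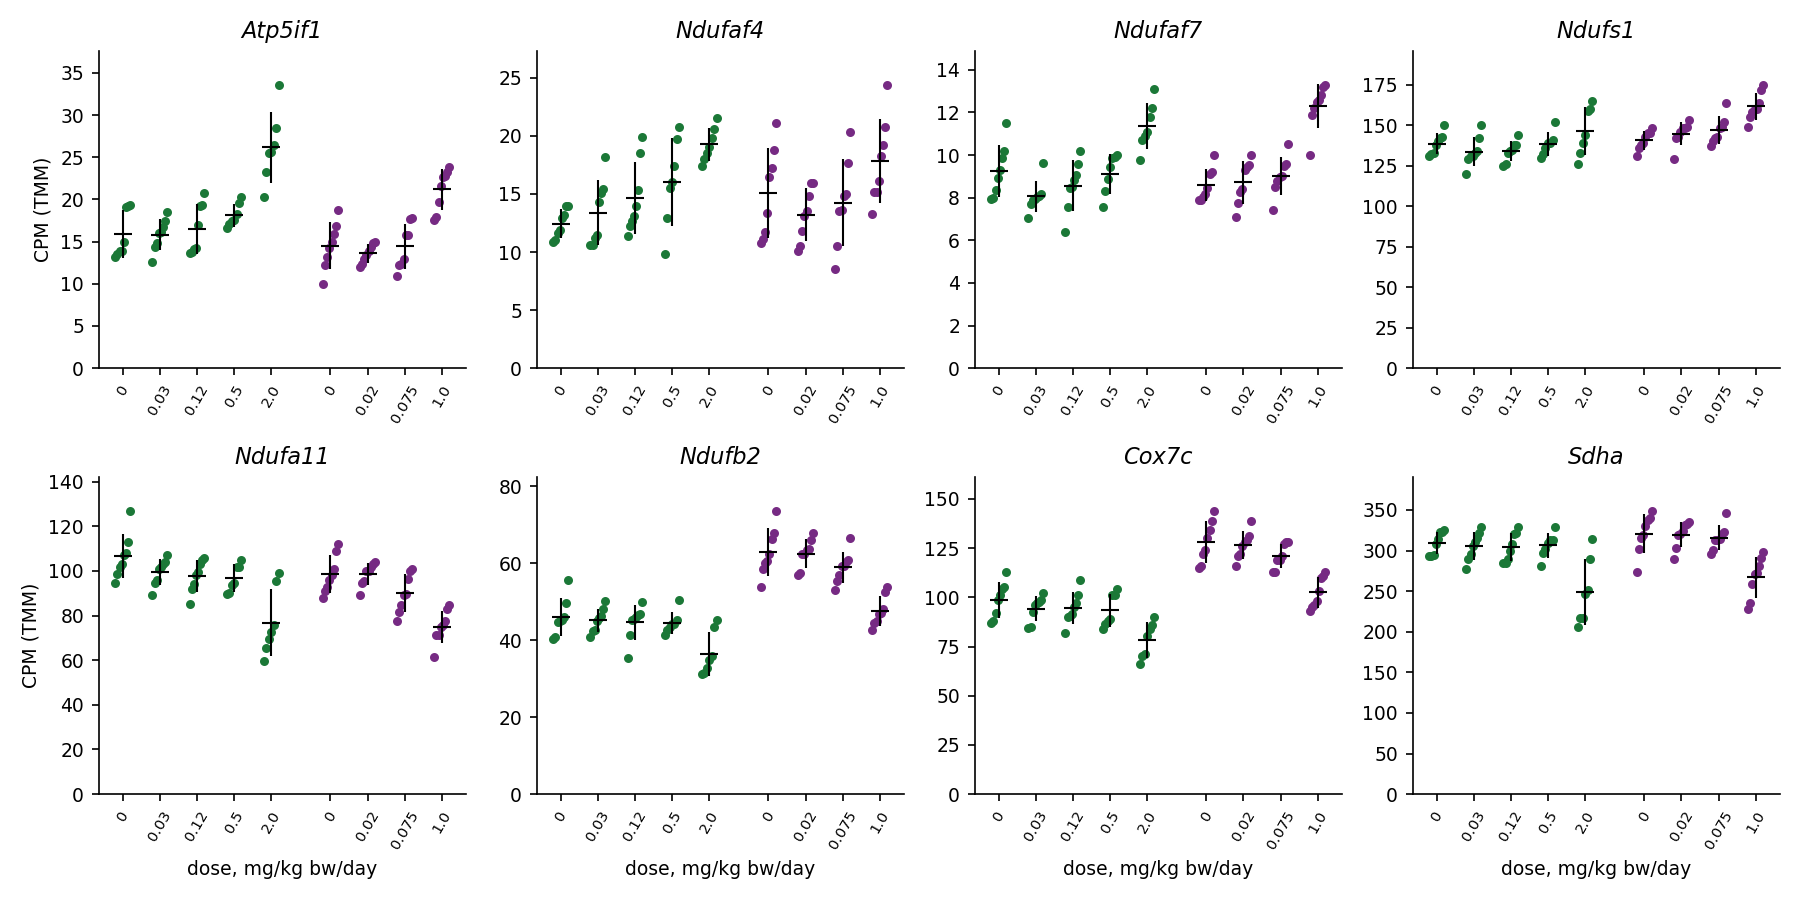
CPM (TMM scale) of 8 OXPHOS genes in each rat (points; black marks are mean and SD) by dose in mg/kg body weight per day for furan (green) and 3-methylfuran (purple). Atp5if1 lies between 20.3 and 33.6 CPM at furan 2.0 beside 13.2 to 19.4 CPM in controls, while Ndufa11 lies between 59.6 and 99.1 CPM beside 94.7 to 127 CPM; with library totals the Ndufa11 change was -0.1 on the log2 scale and not called.

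Dosed rats and controls were completely separated for a few members only. At furan 2.0, 0 of 84 members had every dosed rat below every control, beside 5.57% of all genes tested, and 4 had every dosed rat above (Ndufaf4, Ndufaf5, Ndufaf6 and Atp5if1), beside 5.77%. At 3-methylfuran 1.0, 9 members had every dosed rat below every control, beside 6.08% of all genes, and 2 above (Ndufs1 and Ndufaf7), beside 5.41%. The 9 were Ndufa2, Ndufa11, Ndufb2, Ndufb3, Ndufb11, Ndufv3 (ENSRNOG00000001182), Uqcrq, Cox7c and Atp5mf. The other Ndufv3 entry was not called at this dose. Both counts above the controls, and the 0 below them at furan 2.0, are smaller shares of the members than the background, and the 9 of 84 are a larger share.

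The rats at furan 2.0 were not alike. The median over members of the log2 distance from the control mean was -0.33, -0.31, -0.29 and -0.17 in rats ME082_L, ME085_L, ME081_L and ME083_L. It was -0.08, 0.04 and 0.15 in rats ME092_L, ME086_L and ME089_L. Controls ran from -0.1 to 0.19, so that 3 of the 7 dosed rats lay within the control range. At 3-methylfuran 1.0 the same value ran from -0.17 to 0.02 (median -0.09), overlapping its controls at -0.11 to 0.19 (median -0.07). The SD over rats was 0.19 at furan 2.0 and 0.08 in its controls, and 0.06 at 3-methylfuran 1.0 and 0.12 in its controls.

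Per-rat values were set beside this spread for Col1a1, Epcam and Alb only. The other stellate, cholangiocyte and hepatocyte markers are given by group, which does not show whether they followed it. Markers of further cell types, such as red blood cells and sinusoidal endothelium, are left out here. Col1a1, the fibrillar collagen gene of activated stellate cells, was at 184, 108, 186 and 86.1 CPM in the 4 rats with the lowest OXPHOS values, in the order given. It was at 13.7, 12.1 and 9.01 CPM in the other 3 rats and at 4.92 to 19.5 CPM in controls. Epcam, a cholangiocyte marker, was at 27.8, 26.7, 21.9 and 22.5 CPM in the same 4 rats. In the other 3 it was at 18.8, 13.8 and 16.3 CPM, and in controls at 5.33 to 9.35 CPM. Alb was at 68254, 65212, 77859 and 82806 CPM in the 4 rats, overlapping 79558, 104474 and 102206 CPM in the other 3. Its furan controls held 112254 to 131150 CPM. Over the whole list of stellate and fibroblast markers, 5 of 8 rose and 1 fell at furan 2.0 on the TMM scale (7 rose with library totals), with a summed level of 192 to 902 CPM beside 188 to 334 CPM in controls. Of the cholangiocyte markers 7 of 8 rose (19 to 77.4 beside 7.35 to 14.5 CPM), and of the hepatocyte markers 7 of 8 fell and 1 rose (109347 to 167496 beside 180831 to 206913 CPM; 2 fell and 1 rose with library totals). No marker of these 3 lists was at 0 in all rats of a group. At 3-methylfuran 1.0, 6 of 8 hepatocyte markers fell and 1 rose (172129 to 223329 beside 205029 to 229770 CPM; 2 fell and 1 rose with library totals) and the 7 stellate markers tested were not called (2 rose with library totals). The summed stellate level there was 126 to 185 CPM beside 146 to 163 CPM in controls. The summed cholangiocyte level was 22.6 to 33.5 CPM beside 9.05 to 13.8 CPM, with no overlap, and of the 4 cholangiocyte markers tested 2 rose and 1 fell (2 and 0 with library totals). The part of these cell types in the OXPHOS values was not tested, and in whole liver fewer cells of a type and less RNA per cell cannot be told apart.

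**Figure D4:**
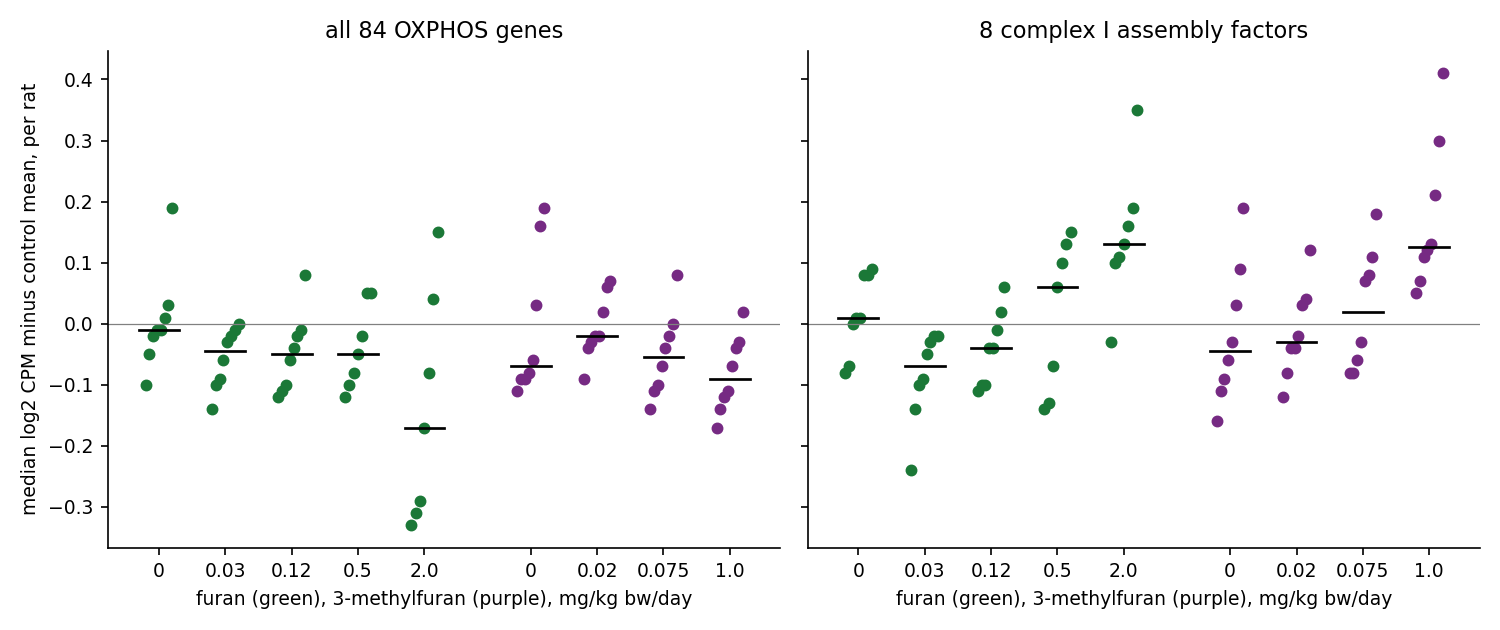
Median log2 distance of CPM (TMM scale) from the control mean in each rat (points; lines are group medians), over all 84 OXPHOS genes (left) and the 8 complex I assembly factors (right), by dose of furan (green) and 3-methylfuran (purple). At furan 2.0 the 84 genes run from -0.33 to 0.15 and the assembly factors from -0.03 to 0.35; with library totals the members' median log2 fold change at furan 2.0 was 0.26.

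At the lower doses no member was called by edgeR. Of 84 members, 0 were called at furan 0.03, 0.12 and 0.5, where 0.0707%, 1.94% and 3.16% of all genes tested were called, and 2, 1 and 3 members had an unadjusted p under 0.05. At 3-methylfuran 0.02 and 0.075, 0 members were called, beside 0.0335% and 1.37% of all genes, and 1 and 7 had an unadjusted p under 0.05. DESeq2 and limma voom also called 0 members at each of these 5 doses. The medians were -0.05, -0.05 and -0.04 at the 3 furan doses, which share their 8 controls, and -0.01 and -0.05 at the 3-methylfuran doses. The per-rat median over the members had an SD between rats of 0.05 to 0.12 over the control and lower-dose groups of both experiments. This is not the spread of single genes, and its upper end is as large as the members' medians at the highest doses (-0.12 and -0.09).

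The effects of the 2 highest doses were then compared, each against its own controls. The doses differ (2.0 and 1.0 mg per kg body weight per day), as do the library kits of the experiments, so compound, dose and kit cannot be told apart. Of the members, 22 fell in both experiments relative to TMM scaling, which is 22 of the 32 that fell with furan and 22 of the 31 that fell with 3-methylfuran. Another 4 rose in both (Atp5if1, Cox7a2l, Ndufaf5 and Ndufaf7), and 0 were called in opposite directions. Lower in both were 26.2% of the members and 15.2% of the 11885 genes tested in both experiments, of which 94 were called in opposite directions. Higher in both were 4.76% of the members and 13.6% of these genes. A fit of all 70 rats tested the difference of the effects itself. It called 0 of 84 members (edgeR, adjusted p under 0.05), beside 7.23% of all genes, and 4 members had an unadjusted p under 0.05. DESeq2 and limma voom called 0 as well, and library totals gave 6, beside 13.3% of all genes.

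The members nearest to a difference were assembly factors and Ndufc2. For Ndufaf6 the furan effect exceeded the 3-methylfuran effect by 0.42 on the log2 scale (95% interval 0.09 to 0.74, edgeR adjusted p = 0.106). For Ndufaf1 the difference was -0.26 (-0.47 to -0.06, adjusted p = 0.106) and for Ndufaf7 -0.23 (-0.46 to -0.01, adjusted p = 0.206). For Ndufc2 it was -0.25 (-0.48 to -0.03, adjusted p = 0.148). Intervals were narrower for the abundant subunits, such as Ndufb11 (-0.17 to 0.15), Cox7c (-0.19 to 0.15) and Atp5f1a (-0.17 to 0.11). A difference that was not called does not show that the compounds act alike.

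**Figure D5:**
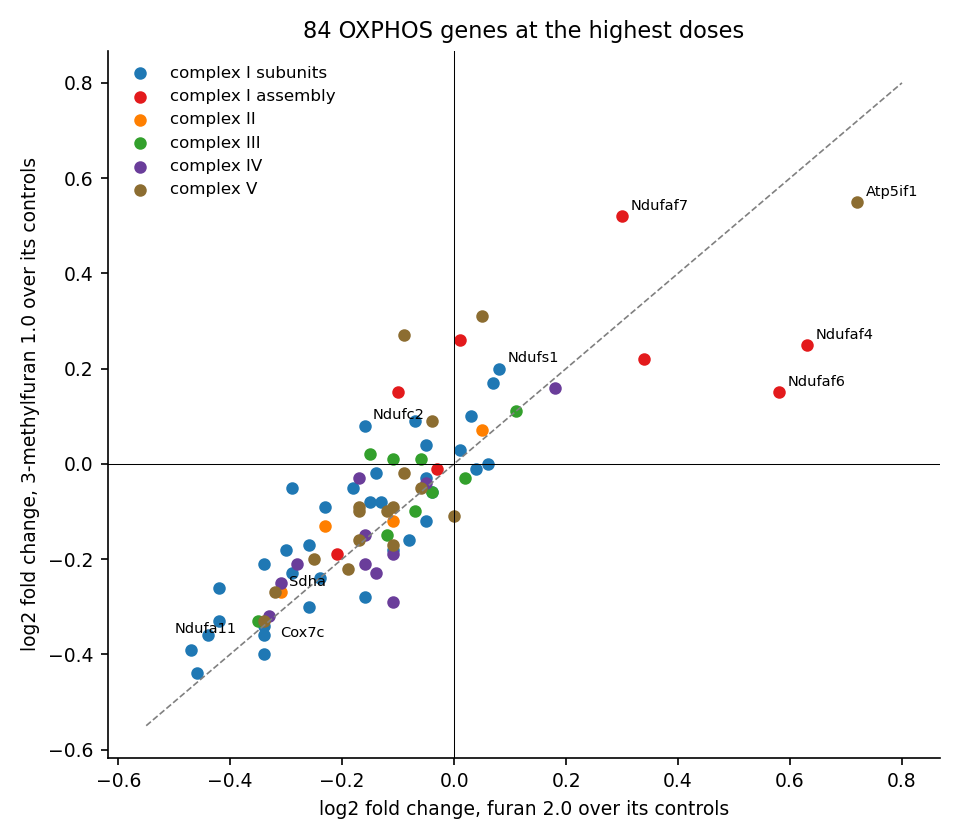
Log2 fold change of each OXPHOS gene at furan 2.0 (horizontal axis) and at 3-methylfuran 1.0 (vertical axis), each over its own 8 controls on the TMM scale, coloured by complex; the dashed line marks equal effects. Atp5if1 lies at 0.72 and 0.55 and Ndufa11 at -0.47 and -0.39, and 22 genes were called lower in both; with library totals 0 and 1 members were called lower.

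The subunits encoded in mitochondrial DNA were lower than the typical gene at furan 2.0. Relative to TMM scaling 10 of 13 fell, with a median of -0.44, and with library totals 4 fell and the median was -0.06. At 3-methylfuran 1.0, 4 fell with a median of -0.15, whereas with library totals 2 fell and 3 rose. Of all genes, 22.5% fell at each of these doses on the TMM scale. With library totals 6.07% and 7.74% of all genes fell, and 68.2% and 51.0% rose. Mt-cyb, the cytochrome b of complex III, went from 6901 ± 737 to 3837 ± 580 CPM at furan 2.0 (mean ± SD, n = 8 and 7) and from 5726 ± 682 to 3852 ± 997 CPM at 3-methylfuran 1.0 (n = 8 and 8). Its log2 fold change was -0.85 ± 0.08 and -0.57 ± 0.12 (edgeR adjusted p = 1.67e-10 and 0.000139). Mt-nd6, the complex I gene on the light strand, had -0.95 ± 0.1 and -0.69 ± 0.16. As a share of all counts, mitochondrially encoded genes took 5.18 to 6.49% in furan controls and 5.08 to 6.11% at furan 2.0. The medians were 5.88 and 5.67%. In the 3-methylfuran experiment these genes took 3.11 to 4.59% in controls (median 3.91) and 3.32 to 5.98% at 1.0 (median 4.37). Libraries selected for poly(A) capture mitochondrial RNA unevenly, and its part in these values was not tested.

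Genes of electron transfer to ubiquinone and of ubiquinone synthesis were called in both directions, as were genes at large. On the TMM scale 24.0% of all genes rose and 22.5% fell at furan 2.0, and 21.2% and 22.5% at 3-methylfuran 1.0. With library totals 68.2% of all genes rose and 6.07% fell at furan 2.0, and 51.0% and 7.74% at 3-methylfuran 1.0. Of 17 electron carrier and ubiquinone genes tested at furan 2.0, 5 rose and 5 fell relative to TMM scaling (11 and 4 with library totals), and at 3-methylfuran 1.0, 6 of 16 rose and 5 fell (10 and 2). Among those that fell at both were Etfdh (-0.51 ± 0.08 and -0.31 ± 0.05) and Etfb (-0.52 ± 0.09 and -0.51 ± 0.06), which pass electrons from fatty acid oxidation to ubiquinone. Among those that rose at both were Coq4 (0.87 ± 0.13 and 0.57 ± 0.1) and Coq3 (0.31 ± 0.05 and 0.41 ± 0.05), which act in ubiquinone synthesis. Coq8a, a further ubiquinone gene, fell at both (-0.66 ± 0.1 and -0.48 ± 0.09). Of 34 assembly factors of complexes I to V that carry other names, 6 rose and 6 fell at furan 2.0, and 3 rose and 7 fell at 3-methylfuran 1.0, with medians of 0.02 and 0.04 on the TMM scale. With library totals 29 and 23 of them rose. Cox15, which makes heme A for complex IV, rose by 0.4 ± 0.09 and 0.4 ± 0.07, and Cox16, another complex IV factor, had -0.44 ± 0.07 and -0.36 ± 0.07.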

How the data were processed

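Liver poly(A) RNA of 70 rats was sequenced in 2 runs (furan, 76 columns) or 3 runs (3-methylfuran, 96 columns) per rat. Per the labels, furan libraries came from the Illumina Stranded mRNA prep kit and 3-methylfuran libraries from TruSeq Stranded mRNA. Rnor 6.0 is the genome build in the submitters' processing notes, which also list DESeq2 1.26.0, featureCounts 2.0.0 and STAR 2.7.1a. Annotation release, strand setting and multimapping reads are not given in the sources used here, so genes with near-identical copies (Cox6b1, Ndufv3 and Uqcrb have 2 entries each) are uncertain. The deposited tables hold an unnormalized read count per gene and run. The deposited comparison tables give, per the file headers, a fold change per dose (a signed fold for furan, in which the authors wrote decreases as negative reciprocals, and a plain ratio for 3-methylfuran) and an adjusted p-value.

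Runs were summed per rat. The robust quasi-likelihood test of edgeR 4.0.16 (R 4.3.3) compared every dose with its own controls, with TMM scaling, the filterByExpr filter at a minimum count of 10, and 1 fit per experiment. Benjamini-Hochberg adjustment ran over all genes tested. Called means an adjusted p under 0.05. All 84 members passed this filter in both experiments. The script was tested on simulated data in which few genes changed, up and down alike. That setting cannot show how TMM scaling performs on the shifted libraries of the highest doses. CPM values are scaled by library size and TMM factor; the per-rat medians use a prior count of 2, and the 1 CPM minimum uses library totals. SE is the log2 fold change divided by the square root of F. Intervals of the difference between compounds use 61 degrees of freedom. Alternatives were RLE, upper quartile and library-total scaling, no filter, DESeq2 1.42.0, limma 3.58.1 (voom), only the compared groups, members of 10 CPM or more, and leaving out each rat. No sample shares a replicate number with a sample of another group. The members and lists were chosen with earlier results of these data known. Named by rule were core and paired-isoform genes, the called members with the highest and lowest fold change in each class with 10 CPM or more, and the 3 smallest p of each comparison. Other members that are named were chosen after their values were seen. The result of 1 gene named by the rule is not reported here. Promoters are from RefSeq (GRCr8), a later build than that of the counts.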

Additional observations from a re-analysis of the deposited data

Results flagged for a closer look

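For the 29 members named by rule, 261 groups of 7 or 8 rats were searched for a single rat that stands apart from the rest of its group, by the gap to the nearest rat over the group's range. In 16 of them (6.13%) the gap passed the 95% limit of Dixon's test, and chance alone gives about 1 in 20. Many fell on the same rats. Rat MC004_L was the highest furan control for Cox5b (175 CPM), Cox6a1 (212), Ndufa4 (213), Ndufb11 (93.2) and Uqcrq (203). Rat MB046_L was the highest at furan 0.12 for Atp5f1a (796 CPM), Atp5f1b (1592), Cox5a (161), Ndufv1 (146) and Uqcrfs1 (177). Rat MB549L was the highest at 3-methylfuran 0.075 for Atp5f1a (935 CPM) and Atp5f1b (2006). At furan 0.03, Ndufaf1 stood out in rat MA023_L (19.4 CPM) and Ndufaf7 in rat MA026_L (9.63 CPM). The lowest value stood out for Ndufaf7 at 3-methylfuran 1.0 (10 CPM, rat ME592L) and for Ndufs1 at 3-methylfuran 0.02 (129 CPM, rat MA521L).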

How the results depend on the processing

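Library totals in place of TMM raised the median of all genes to 0.42 at furan 2.0 and 0.25 at 3-methylfuran 1.0, while the distance of the members' median from it was -0.16 and -0.09 (-0.14 and -0.09 with TMM). Under this common shift the members called lower and higher were 0 and 62 at furan 2.0 (median 0.26) and 1 and 45 at 3-methylfuran 1.0 (median 0.15), and 6 were called in the difference between the compounds. The sign turned at furan 2.0 for Atp5f1a (0.26), Atp5f1b (0.27), Atp5f1e (0.04), Atp5mc1 (0.27), Cox5a (0.33), Cox5b (0.22), Cox6a1 (0.27), Cox7c (0.05), Cox8a (0.24), Ndufa4 (0.04), Ndufb11 (0.04), Ndufb2 (0.04), Ndufc2 (0.22), Ndufv1 (0.34), Sdha (0.06), Sdhb (0.26) and Uqcrq (0.03). Among the members reported here, it turned at 3-methylfuran 1.0 for Atp5f1a (0.15), Atp5f1b (0.16), Cox5a (0.21), Cox5b (0.05), Cox6a1 (0.06), Cox8a (0.02), Ndufa4 (0.04), Ndufv1 (0.19) and Uqcrfs1 (0.22). Both lists hold only named members that were called with TMM, with library totals or with both. A named member called under neither scaling is left out even where its sign turned. Restricting the members to a mean of 10 CPM or more left 3 called higher at furan 2.0 and 5 at 3-methylfuran 1.0, since fewer genes enter. Upper quartile scaling gave 24 lower and 8 higher at furan 2.0, and 24 and 9 at 3-methylfuran 1.0. Leaving out 1 rat at a time gave 24 to 49 lower and 6 to 8 higher at furan 2.0, with a median of -0.18 to -0.07. It gave 25 to 34 lower and 6 to 8 higher at 3-methylfuran 1.0, with a median of -0.11 to -0.06, and 0 to 1 called in the difference (1 without control rat MC510L). RLE scaling, no filter, DESeq2, limma voom and fits of only the compared groups reversed none of the 29 named members at either highest dose. Here too a change of sign was counted only where the main fit or the alternative called the member. No paired analysis was possible because no replicate number is shared between groups. Depth limits members with few counts, such as Ndufv3 (ENSRNOG00000027593), Ndufaf6 and Atp5s at means of 1.18, 3.5 and 4.57 CPM over 70 rats.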

Other observations

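Regulators of mitochondrial biogenesis were called in both directions, at smaller shares than all genes on the TMM scale. Among them 3 of 17 rose and 2 fell at furan 2.0 relative to TMM scaling, and 2 rose and 3 fell at 3-methylfuran 1.0 (edgeR, adjusted p under 0.05), whereas with library totals 14 and 8 rose. Of all genes, 24.0% rose and 22.5% fell at furan 2.0 on the TMM scale, and 21.2% and 22.5% at 3-methylfuran 1.0. With library totals 68.2% and 51.0% of all genes rose. Ppargc1a, the coactivator PGC-1 alpha that drives OXPHOS gene expression, went from 2.32 ± 0.754 to 5.3 ± 0.691 CPM at furan 2.0 (mean ± SD, n = 8 and 7) and from 2.58 ± 0.452 to 4.42 ± 1.21 CPM at 3-methylfuran 1.0 (n = 8 and 8). It rose by 1.18 ± 0.25 and 0.78 ± 0.22 on the log2 scale (SE; edgeR adjusted p = 0.000156 and 0.00381). Nrf1, the gene of nuclear respiratory factor 1, had -0.31 ± 0.09 at 3-methylfuran 1.0 (adjusted p = 0.00764). Nrip1, a corepressor of the same programme, had -0.57 ± 0.09 at furan 2.0 (adjusted p = 1.07e-06).

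Other mitochondrial genes were mixed. Beside the counts that follow, 24.0% of all genes rose and 22.5% fell at furan 2.0 on the TMM scale. At 3-methylfuran 1.0 these shares were 21.2% and 22.5%, and with library totals 68.2% and 51.0% of all genes rose at the 2 doses. In the citric acid cycle 4 of 14 rose and 3 fell at furan 2.0, and 4 rose and 2 fell at 3-methylfuran 1.0, on the TMM scale (11 and 11 rose with library totals). Cs, the citrate synthase gene, rose by 0.25 ± 0.05 and 0.29 ± 0.07, and Suclg2, a succinate-CoA ligase subunit, had -0.47 ± 0.08 and -0.48 ± 0.06. Of 71 mitochondrial ribosome genes, 21 rose and 10 fell at furan 2.0 and 24 rose and 9 fell at 3-methylfuran 1.0, and with library totals 67 and 56 rose. Among the 13 carrier and uncoupling genes tested, 4 rose and 3 fell at furan 2.0, and 4 rose at 3-methylfuran 1.0 (9 and 8 with library totals). Slc25a4, the muscle-type ADP/ATP carrier, went from 4.36 ± 1.22 to 19.1 ± 6.18 CPM at furan 2.0 and from 3.14 ± 0.607 to 12.6 ± 7.01 CPM at 3-methylfuran 1.0. Its log2 fold change was 2.12 ± 0.2 and 2.0 ± 0.22 (edgeR adjusted p = 3.19e-10 and 1.41e-08).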
